A study of Mus musculus with 40 samples.

Results

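The 39 genes described here serve transmitter release and transmitter identity in neurons: they encode the proteins with which an axon terminal stores and releases transmitter, the transporters and enzymes that give a neuron its transmitter, and 2 general neuron markers. They were chosen by symbol from the 26792 gene symbols of the raw count table, and all 39 were found there. They were followed in libraries of hypothalamus from mice carrying the Aldh1l1-eGFP-L10a transgene, in which the astrocyte gene Aldh1l1 drives a fluorescent fusion of the ribosomal protein L10a. Ribosomes bearing the fusion were pulled down from tissue lysate with their messages (immunoprecipitate, the pull-down), and the supernatant was sequenced beside it. The study asked what a high-fat diet (HFD) and removal of the testes (orchiectomy, ORX) change in hypothalamic astrocytes. Each fraction had 7 libraries from orchiectomised mice on HFD, 6 from sham-operated mice on HFD and 7 from sham-operated mice on chow. Diets lasted 4 weeks, and all groups, the sham chow group included, carried the transgene. An orchiectomised group on chow was not analysed here, and age and strain background are not given in the labels used here. The labels number the samples without saying whether a number is 1 mouse, so the p-values rest on the spread among these samples, which may in part be technical.

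At a terminal, vesicles loaded with transmitter by a vesicular transporter are held at the active zone by scaffold proteins, primed, and fused with the plasma membrane when calcium binds a sensor. Fusion is carried out by the SNARE proteins, one set on the vesicle and the other on the target membrane, which zip together and are later pulled apart by an ATPase. Glutamate, GABA and monoamine neurons share this machinery and differ in the transporter and the synthetic enzymes they use, and the hypothalamus holds all of these kinds of neuron. Astrocytes release and take up other substances and are not known as users of most neuronal forms of these proteins, although widely expressed relatives of many of them exist.

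Library totals ran from 7714834 to 20792175 counts in the pull-downs and from 8739276 to 12931869 in the supernatants. Values are given as CPM (counts for a library of standard size, after TMM scaling), a level in which each message gives about 1 tag near its 3' end. The fraction labels held for the tagged cell type: Aldh1l1 had 122 to 207 CPM in the pull-downs and 1.64 to 15.0 CPM in the supernatants, and all 15 astrocyte markers tested were higher in the pull-down, with log2 fold changes of 3.30 for Glul, 3.57 for Aldoc and 5.31 for Slc1a2. Counts on mitochondrially encoded genes made up 0.643% to 1.63% of a pull-down and 19.2% to 27.8% of a supernatant. In 4 pull-downs the non-coding RNA Gm42418 took over 10% of the counts, with 15.2% in ORX HFD sample 22, 17.0% in ORX HFD sample 11, 18.2% in sham HFD sample 1 and 13.3% in sham chow sample 8, against 1.07% to 8.51% in the other 16. The supernatant of ORX HFD sample 2 also stood apart: among the 20 supernatants it had the highest level of 16 of the 39 genes and the lowest of 6. That of sham chow sample 8 had the lowest of 8. The shares among all tested genes were not computed, so these counts describe the 39 genes only. Fraction results are given below with and without the 4 samples rich in Gm42418. Leaving out either ORX HFD sample 2 or sample 22 left all 39 genes called.

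In the count table all 39 genes were lower in the pull-down than in the supernatant, and each still had counts in at least 19 of the 20 pull-downs. For Rims2 the second deposited table did not show this, as given among the active zone genes. A gene was counted as detected in a fraction when every one of its 20 libraries held at least 1 count. By that measure 39 genes were detected in the supernatants and 37 in the pull-downs, where Slc17a7 and Slc30a3 missed 1 library each. The 39 genes together had 972 to 2136 CPM in a pull-down, with a median of 1183 CPM, and 10080 to 12270 CPM in a supernatant, with a median of 11320 CPM. In 37 of the 39, every pull-down lay below every supernatant, a separation that 18.9% of the 15629 tested genes showed, and the exceptions were Rims2 and Pclo. The edgeR test, at a Benjamini-Hochberg adjusted p under 0.05 over all genes tested, called all 39 lower, against 43.7% of all tested genes called lower. The median log2 fold change of the 39, pull-down over supernatant, was -3.25 (range -5.49 to -0.70), and that of all tested genes was -0.01. Within the list 36 genes were called and at least 4-fold lower, 30 at least 8-fold and 9 at least 16-fold, against 15.5%, 7.79% and 1.8% of all tested genes.

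What was left was expressed for each sample number as the pull-down CPM in percent of the supernatant CPM, and averaged over the 20 samples. The 39 averages ran from 2.32% for Hpca to 66.8% for Rims2, with a median of 10.7%. The Rims2 value holds for the count table alone, and the next highest was 42.1% for Pclo. Under 10% was left of 16 genes, 10% to 20% of another 16, and over 20% of 7, namely Unc13a (20.1%), Vamp2 (20.4%), Syn2 (22.0%), Cplx2 (23.9%), Syngr1 (33.3%), Pclo (42.1%) and Rims2 (66.8%). Without the 4 samples rich in Gm42418 the median was 8.55%, with a range from 2.12% to 68.6%, the upper end again that of Rims2, and all 39 genes were still called lower (median log2 fold change -3.57). By role, the vesicular transporters were left least, with a median of 4.24% over 5 genes, and the active zone genes most, with 20.1% over 5. The fusion machinery (9.60%, 8 genes), the calcium sensors (10.3%, 3 genes), the vesicle membrane and surface proteins (10.9%, 12 genes) and the synthetic enzymes (12.0%, 4 genes) lay between, and the 2 general neuron markers had 6.39%. These role medians are a description and were not tested against each other.

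**Figure D1:**
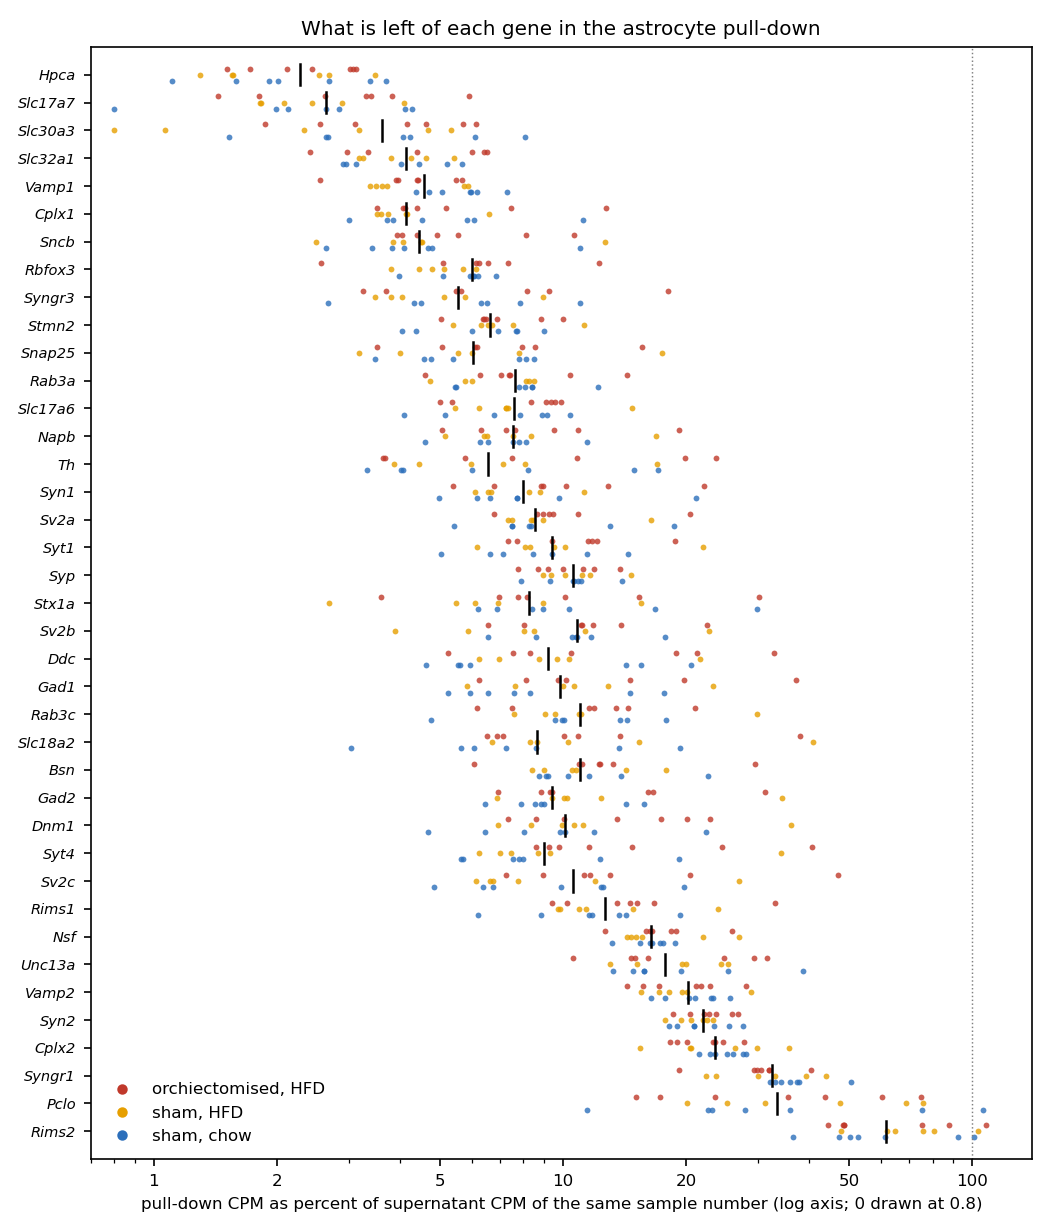
For each of the 39 genes, every point is 1 sample number: pull-down CPM as percent of supernatant CPM on a log axis, coloured by treatment, with the median over 20 samples as a black bar and 100% as a dotted line. The genes run from Hpca, with an average of 2.32% left, at the top to Rims2, with 66.8%, at the bottom, and the 3 treatments overlap in every row.

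The fusion machinery spanned from Vamp1 to Cplx2. Snap25 (chr2:136713453-136782428 on GRCm38), the SNARE of the neuronal plasma membrane, had 25.7 to 90.7 CPM in pull-downs (median 38.4) and 438 to 1168 CPM in supernatants (median 652), a log2 fold change of -3.94 ± 0.15 (SE; adjusted p 1.64e-25). Vamp1, one of the vesicle SNAREs, had 9.06 to 20.1 CPM in pull-downs (median 16.6) and 216 to 679 CPM in supernatants (median 301), with a log2 fold change of -4.47 ± 0.12 (adjusted p 2.28e-30) and 4.78% ± 1.2 left (SD, n = 20). For both genes the highest pull-down stayed far below the lowest supernatant. Vamp2, the other vesicle SNARE and the more general of the pair in brain, kept more: 34.8 to 60.2 CPM in pull-downs (median 49.9) and 177 to 416 CPM in supernatants (median 234), so that 20.4% ± 4.0 was left. The complexins, small clamps on the assembled SNAREs, differed in the same way. Cplx1 had 12.7 to 47.2 CPM in pull-downs (median 16.8) and 287 to 483 CPM in supernatants (median 378), which left 5.27% ± 2.57. Cplx2 had 32.96 to 62.4 CPM in pull-downs (median 50.7) and 160 to 270 CPM in supernatants (median 209), which left 23.9% ± 4.6 at a log2 fold change of -2.08 ± 0.08 (adjusted p 2.6e-26). Thus Cplx2 and Vamp2 had higher pull-down medians than Cplx1 and Vamp1, and lower supernatant medians.

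The disassembly pair also differed. Nsf, the ATPase that takes spent SNARE complexes apart in every cell type, had 17.4% ± 3.7 left, with 84.1 to 150 CPM in pull-downs and 475 to 789 CPM in supernatants. Its brain-enriched adaptor Napb had 8.45% ± 3.74 left, with 32.5 to 112 CPM in pull-downs and 417 to 790 CPM in supernatants. Stx1a, the syntaxin partner of Snap25, was a low-level gene here, with 0.371 to 5.13 CPM in pull-downs (4 to 41 counts) and 10.3 to 24.4 CPM in supernatants, so its 10.7% ± 7.5 is the least precise of this role.

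**Figure D2:**
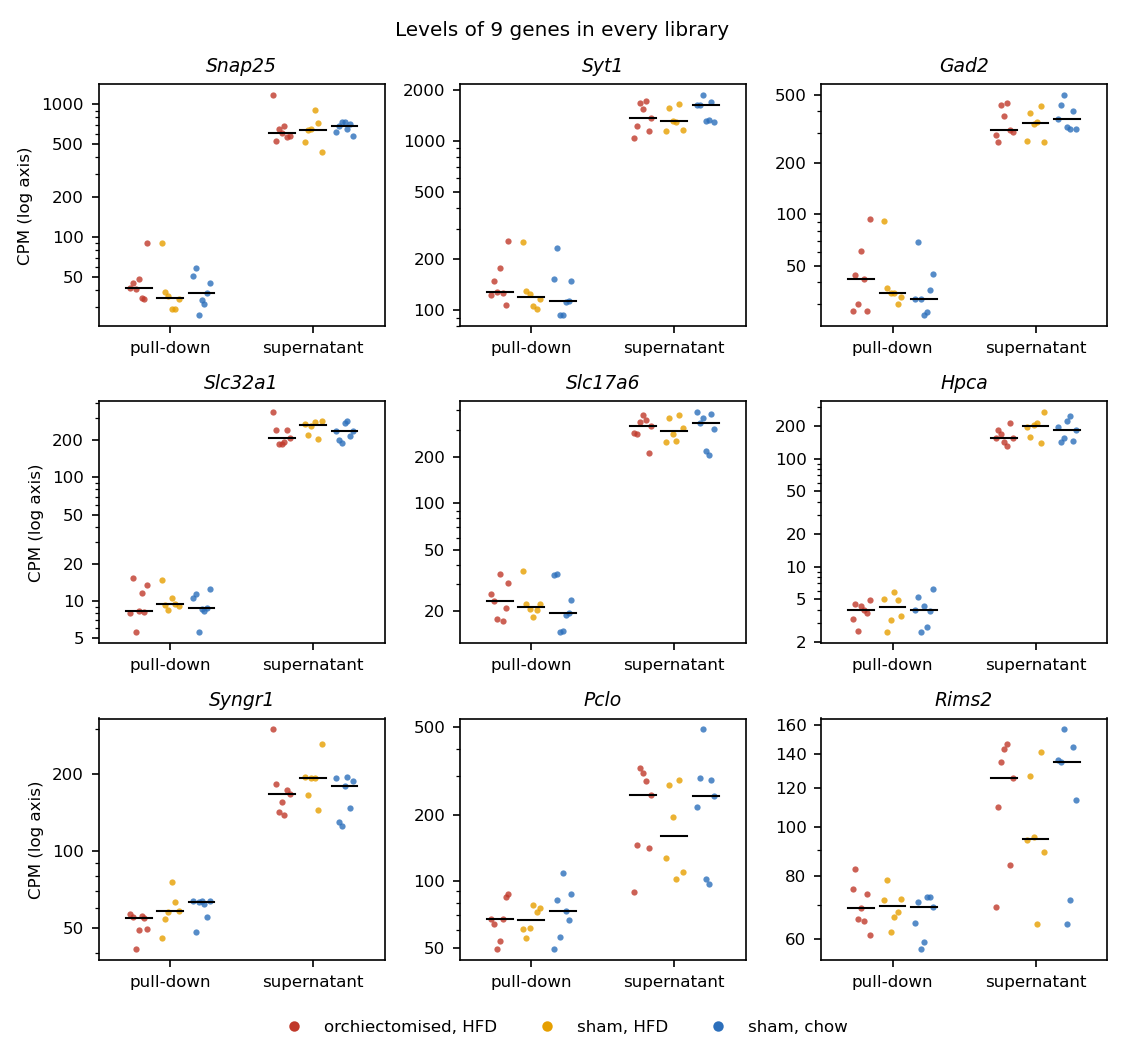
CPM of 9 of the genes in each of the 40 libraries on log axes, pull-downs left of supernatants, with 1 point per library, colours for treatment and black bars for group medians. Pull-downs and supernatants are apart for 7 genes and overlap for Pclo and Rims2.

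Among the calcium sensors, Hpca was left least of all 39 genes. Hpca (hippocalcin, chr4:129111570-129122036), a calcium-binding protein of neurons best known from hippocampus, had 2.45 to 6.19 CPM in pull-downs (median 3.96) and 130 to 268 CPM in supernatants (median 176). Its log2 fold change was -5.49 ± 0.12 (adjusted p 2.94e-33), and no sample kept more than 3.70%. Syt1, the fast sensor of synchronous release, had 92.7 to 256 CPM in pull-downs (median 125) and 1033 to 1846 CPM in supernatants (median 1345), a log2 fold change of -3.33 ± 0.13 (adjusted p 9.39e-26). Syt4, a synaptotagmin linked to peptide vesicles, was steady in the supernatant and variable in the pull-down. It had 17.4 to 119 CPM in pull-downs (median 29.5) and 266 to 338 CPM in supernatants (median 308), coefficients of variation of 69.4% and 6.21%, with a log2 fold change of -3.04 ± 0.19 (adjusted p 3.23e-18).

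The 12 vesicle membrane and surface genes ranged from Sncb to Syngr1. Sncb, beta-synuclein of the terminal, had 5.40 to 21.1 CPM in pull-downs (median 7.58) and 136 to 257 CPM in supernatants (median 168), a log2 fold change of -4.28 ± 0.15 (adjusted p 6.77e-27). Sv2a, a vesicle glycoprotein present at most terminals, had 44.3 to 176 CPM in pull-downs (median 76.2) and 816 to 1058 CPM in supernatants (median 874), a log2 fold change of -3.33 ± 0.13 (adjusted p 7.89e-26). Syngr1, a tetraspan protein of vesicles, had 41.4 to 75.7 CPM in pull-downs (median 56.5) and 125 to 298 CPM in supernatants (median 176), a log2 fold change of -1.65 ± 0.08 (adjusted p 2.44e-21). Syngr1 thus fell less than any other gene of this role, and its fractions were still apart in all 20 samples. Its close relative Syngr3 had only 6.39% ± 3.56 left, with 2.57 to 14.3 CPM in pull-downs and 77.3 to 111 CPM in supernatants. The synapsins, which tether vesicles in clusters, split as well. Syn1 had 9.34% ± 4.64 left and Syn2 22.0% ± 2.9, Syn2 with 101 to 141 CPM in pull-downs and 476 to 649 CPM in supernatants. The other genes of this role were between these: Rab3a (7.73%) and Rab3c (12.2%), GTPases of the vesicle surface, the vesicle protein Syp (10.6%), the glycoproteins Sv2b (11.1%) and Sv2c (12.9%), and Dnm1 (12.8%), the neuronal dynamin of vesicle retrieval.

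The promoters of the 39 genes were searched for the letters of the RE1 element, to which the repressor REST is known to bind near many neuronal genes in other cell types. RefSeq promoters (250 bases before to 50 after the start, on GRCm38.p6) were found for 33 of the 39 genes. The full core, CAGCACC and GGACAG with 2 bases of any kind between them, on either strand, was in the promoter of 0 of the 33 genes and in 0.0365% of all 32851 promoters. Its first part alone, CAGCACC on either strand, was in those of 3 genes, Syn1, Sv2c and Unc13a, and in 8.14% of all 27025 symbols with a promoter. The 3 windows are shown because they hold a match, which is in capitals (for Unc13a it lies on the opposite strand and reads GGTGCTG), and all 3 genes are on the minus strand.
Syn1, chrX:20920869-20921168: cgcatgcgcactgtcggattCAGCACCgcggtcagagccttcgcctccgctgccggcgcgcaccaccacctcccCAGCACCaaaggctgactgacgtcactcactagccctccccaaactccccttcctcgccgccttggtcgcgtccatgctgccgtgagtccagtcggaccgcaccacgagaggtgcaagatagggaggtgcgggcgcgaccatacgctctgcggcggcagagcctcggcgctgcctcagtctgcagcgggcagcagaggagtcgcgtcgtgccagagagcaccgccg
Sv2c, chr13:96132528-96132827: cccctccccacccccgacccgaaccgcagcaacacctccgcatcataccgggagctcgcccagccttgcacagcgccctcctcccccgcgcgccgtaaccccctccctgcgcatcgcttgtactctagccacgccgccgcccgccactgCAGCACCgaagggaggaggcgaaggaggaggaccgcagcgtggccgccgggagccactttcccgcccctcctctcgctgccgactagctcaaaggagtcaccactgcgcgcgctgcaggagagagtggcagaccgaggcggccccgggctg
Unc13a, chr8:71671708-71672007: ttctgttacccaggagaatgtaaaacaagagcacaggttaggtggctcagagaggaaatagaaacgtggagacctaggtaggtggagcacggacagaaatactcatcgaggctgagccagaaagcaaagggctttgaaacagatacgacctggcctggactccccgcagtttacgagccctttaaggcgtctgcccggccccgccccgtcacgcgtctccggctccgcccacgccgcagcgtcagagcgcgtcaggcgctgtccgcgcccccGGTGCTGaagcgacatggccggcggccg
A match describes letters in this window and was not tested for binding, and RE1 elements outside it were not searched. Only exact letters were counted. In the Syn1 window the first CAGCACC is followed by gcggtcag, which differs from the full core by a single letter. The full core was so rare among all promoters that finding it in 0 of 33 genes does not set these genes apart. In the pull-down the 3 genes had 9.34% (Syn1), 12.9% (Sv2c) and 20.1% (Unc13a) left, which is within the span of the genes without a match.

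Of the 5 active zone genes, Rims2 and Pclo were the 2 whose fractions overlapped. Bsn (bassoon), a giant scaffold protein of the release site, had 3.45 to 13.7 CPM in pull-downs (median 4.89) and 32.3 to 60.4 CPM in supernatants (median 43.6), a log2 fold change of -3.03 ± 0.13 (adjusted p 2.22e-24). Pclo (piccolo, chr5:14514918-14863459), the scaffold related to bassoon, had 49.1 to 109 CPM in pull-downs (median 67.3) and 89.6 to 489 CPM in supernatants (median 230). Its log2 fold change was -1.63 ± 0.17 (adjusted p 4.52e-11), and the percent left ran from 11.5% to 107% among samples. The overlap was that of 1 pull-down, at 109 CPM, with the 4 lowest supernatants, at 89.6 to 103 CPM. Coefficients of variation of Pclo were 21.8% in pull-downs and 47.8% in supernatants. Rims1, a scaffold that binds Rab3 on vesicles and recruits calcium channels, had 13.9% ± 6.0 left, and the priming factor Unc13a, at 2.33 to 6.83 CPM in pull-downs and 12.9 to 24.9 CPM in supernatants, had 20.1% ± 7.3.

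Rims2 (chr15:39198261-39684372), the paralogue of Rims1, fell least, and its value depends on which deposited table is used. In the count table it had 57.1 to 82.6 CPM in pull-downs (median 69.3) and 64.0 to 157 CPM in supernatants (median 119), a log2 fold change of -0.70 ± 0.10 (adjusted p 2.61e-08). A second table deposited by the authors equals the count table up to a factor per library for 38 of the 39 genes, within 0.01 counts. Rims2 is the 1 that differs, with a summed count of 39421 in the count table and 10765 recovered from the second. There the Rims2 signal was 1.91 to 36.3 in pull-downs (median 24.1) and 0 to 68.6 in supernatants (median 17.6), and limma gave a log2 difference of 0.95 ± 0.54 (adjusted p 0.1), with the opposite sign. Neither the size nor the direction of the Rims2 difference can therefore be taken as settled by these tables.

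The vesicular transporters were left least as a role. Slc17a6, the glutamate transporter of hypothalamic and other subcortical neurons (VGLUT2), had 14.6 to 36.8 CPM in pull-downs (median 21.6) and 207 to 388 CPM in supernatants (median 314), a log2 fold change of -3.71 ± 0.12 (adjusted p 1.03e-27). Slc32a1, which fills vesicles with GABA and glycine, had 5.55 to 15.4 CPM in pull-downs (median 9.17) and 187 to 335 CPM in supernatants (median 239), a log2 fold change of -4.59 ± 0.11 (adjusted p 7.71e-32). Both were apart between fractions in every sample, and 7.85% ± 2.45 of Slc17a6 and 4.24% ± 1.27 of Slc32a1 was left. Slc18a2, the vesicular monoamine transporter, was the most variable of the role in the pull-downs, with 1.37 to 18.5 CPM in pull-downs (median 3.93) and 33.1 to 58.7 CPM in supernatants (median 45.2). Its log2 fold change was -3.10 ± 0.20 (adjusted p 3.57e-17), and the percent left ran from 3.03% to 40.8%.

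The cortical forms were at the limit of detection in the pull-down. Slc17a7, the glutamate transporter typical of cortex and hippocampus (VGLUT1), had 0 to 1.13 CPM in pull-downs (0 to 17 counts, median 0.374 CPM) and 6.33 to 25.8 CPM in supernatants (median 14.2), a log2 fold change of -4.99 ± 0.23 (adjusted p 7.99e-23). Slc30a3, the vesicular zinc transporter, had 0 to 1.07 CPM in pull-downs (0 to 12 counts, median 0.585 CPM) and 7.35 to 28.0 CPM in supernatants (median 16.1), a log2 fold change of -4.87 ± 0.18 (adjusted p 6.4e-26). Where a pull-down held 0 counts, 3 counts would be 0.296 CPM for Slc17a7 in sham chow sample 8, or 4.68% of its supernatant level, and 0.267 CPM for Slc30a3 in sham HFD sample 9, or 1.94%. These limits cover counting error only. Markers of cortical and hippocampal excitatory neurons were present in the dissected tissue: 12 of the 14 were tested, with 10 lower in the pull-down, among them Nrgn (-4.22 ± 0.19), Camk2a (-3.48 ± 0.15) and Mef2c (-1.23 ± 0.10), and 2 higher, among them Emx2 (0.97). Their summed level was 74.7 to 155 CPM in pull-downs and 667 to 963 CPM in supernatants, and its part in the levels of Slc17a7, Slc30a3 and Hpca was not tested.

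The enzymes of transmitter synthesis were lower in the pull-down by similar amounts. Gad2, one of the enzymes that make GABA, had 25.6 to 94.2 CPM in pull-downs (median 34.5) and 265 to 494 CPM in supernatants (median 341), a log2 fold change of -3.06 ± 0.16 (adjusted p 7.12e-21). Gad1, the other, had 11.8 to 61.7 CPM in pull-downs (median 18.2) and 130 to 281 CPM in supernatants (median 192), which left 12.1% ± 7.7. Both enzymes kept a larger percentage than Slc32a1 of the same neurons, with averages of 12.6% for Gad2 and 12.1% for Gad1 beside 4.24%. Th, the first enzyme of catecholamine synthesis, had 2.17 to 19.9 CPM in pull-downs (median 5.02) and 54.7 to 145 CPM in supernatants (median 75.7), a log2 fold change of -3.65 ± 0.20 (adjusted p 1.32e-19). Ddc, which completes dopamine and serotonin, had 4.999 to 41.6 CPM in pull-downs (median 11.8) and 90.5 to 212 CPM in supernatants (median 119), which left 12.0% ± 7.6. Of the general markers, Stmn2, a tubulin-binding protein of growing axons, had 28.4 to 63.9 CPM in pull-downs (median 42.6) and 531 to 711 CPM in supernatants (median 641), a log2 fold change of -3.86 ± 0.09 (adjusted p 1.04e-32). Rbfox3, the splicing factor detected as NeuN, had 5.07 to 22.7 CPM in pull-downs (median 11.4) and 167 to 261 CPM in supernatants (median 191), a log2 fold change of -4.13 ± 0.11 (adjusted p 3.34e-31).

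Relatives of the same proteins, listed as widely expressed, went both ways. Of 26 such relatives tested, 13 were higher and 13 lower in the pull-down, the median log2 fold change being -0.06. Wide expression was not checked gene by gene, so this split describes the list and not general forms as a class. The 13 lower included Rbfox1 (-3.87), Hpcal4 (-3.60) and Stmn4 (-3.42), named here after their values were seen. Snap23, the general form of Snap25, had 14.4 to 24.5 CPM in pull-downs and 3.16 to 5.84 CPM in supernatants, a log2 fold change of 2.09 ± 0.07 (adjusted p 9.29e-27) beside the -3.94 of Snap25. The general dynamin Dnm2 stood at 1.48 ± 0.07 (adjusted p 4.16e-23) beside -3.01 ± 0.19 for Dnm1, and the general vesicle SNARE Vamp3 at 0.76 ± 0.06 (adjusted p 2.95e-15) beside -2.33 ± 0.09 for Vamp2. Syngr2 (0.60 ± 0.08), Sypl (0.59 ± 0.04), Rab3d (0.46 ± 0.15) and Syt11 (0.13 ± 0.04) were also higher in the pull-down, where Syngr1, Syp, Rab3a and Syt1 were lower. The relatives Napa (-0.88 ± 0.06), Rbfox2 (-2.48 ± 0.10), Stmn1 (-3.10 ± 0.08), Hpcal1 (-3.17 ± 0.13) and Ncald (-3.34 ± 0.09) were lower, as Napb, Rbfox3, Stmn2 and Hpca were. In the 11 pairs named by list, which leave out Ncald, the neuronal gene had the lower fold change each time, in estimates from the same fit, and the differences within pairs were not tested. Outside those pairs Stmn3, another relative on the list, chosen here after its values were seen, stood at -3.96 ± 0.09, below Stmn2.

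Outside the list, other presynaptic genes gave a similar picture, while other transmitter identity genes went both ways. Of 48 other presynaptic genes, all tested, 44 were lower and 4 higher in the pull-down, the median log2 fold change being -2.48. Snap47, a SNARE relative of Snap25, stood at -2.28 ± 0.12. Among those higher were Erc1 (0.44 ± 0.14), Syt12 (1.19 ± 0.09) and Sypl2 (3.82 ± 0.20). Of 20 other transmitter identity genes 13 were tested, and 8 were lower, among them the acetylcholine enzyme Chat (-4.52 ± 0.14), its vesicular transporter Slc18a3 (-4.09 ± 0.19) and the dopamine transporter Slc6a3 (-3.80 ± 0.20). Among the 5 that were higher, Maob (3.42 ± 0.11) and Maoa (1.71 ± 0.05) break down monoamines and Slc6a9 (2.97 ± 0.11) takes up glycine, which astrocytes are known to do. Markers of other cells differed in direction: 9 of 9 oligodendrocyte markers were lower (median -3.70), with Mbp at -3.72 and Mobp at -3.36. All 9 microglia markers were lower (median -2.67), with Cx3cr1 at -2.87 and Csf1r at -2.42, and 9 of 9 endothelial markers were higher (median 2.25), with Flt1 at 3.12, Ly6c1 at 1.45 and Itm2a at 1.86. Of 15 hypothalamic neuron markers 14 were tested, with 13 lower, 0 higher and 1 (Pomc) not called. Pmch stood at -4.10, Oxt at -3.08 and Hcrt at -1.34, and the median was -2.73 beside the -3.25 of the 39 genes.

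What was left varied among pull-downs, and the 4 libraries rich in Gm42418 were the 4 with the highest sum. Their summed level of the 39 genes was 2136 CPM in ORX HFD sample 22, 1440 in ORX HFD sample 11, 1891 in sham HFD sample 1 and 1738 in sham chow sample 8, against 972 to 1428 CPM in the other 16 (median 1166). Mitochondrial counts were 1.63%, 0.856%, 1.32% and 1.14% in the same 4 libraries, against 0.643% to 1.01% in the others. Aldh1l1 in the matching supernatants was 11.2, 10.6, 15.0 and 8.98 CPM, against 1.64 to 9.55 CPM in the others. These 4 therefore had a higher sum of the 39 genes in the pull-down than any of the other 16. For sample 11 the margin was narrow (1440 against at most 1428 CPM). Samples 22, 11 and 1 also had more Aldh1l1 in the supernatant than any of the other 16. The parts of Gm42418, of mitochondrial RNA and of carry-over between fractions in these levels were not tested.

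The excess in those 4 pull-downs was uneven across genes. Sample 22 was above all the other 16 pull-downs for 28 genes, sample 1 for 26, sample 8 for 25 and sample 11 for 16. In the same order, these samples were below the median of the 16 for 7, 6, 6 and 9 genes. Such counts were not made for all tested genes, so the excess is not shown to be particular to the list. In sample 22, Slc18a2 stood at 5.08 times the median of the 16, Syt4 at 4.64 times, Sv2c at 4.61 times and Th at 4.18 times. In the same library Syp stood at 0.62 times, Cplx2 at 0.63 times, Vamp2 at 0.67 times, Vamp1 at 0.79 times and Syngr1 at 0.85 times that median. Slc32a1 and Gad1, both of GABA neurons, differed there too, at 1.52 and 3.92 times. Of the 7 genes with over 20% left, Syngr1, Cplx2, Vamp2 and Rims2 were below the median of the 16 in sample 22, and Unc13a (1.76 times), Pclo (1.31 times) and Syn2 (1.22 times) were above it.

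**Figure D3:**
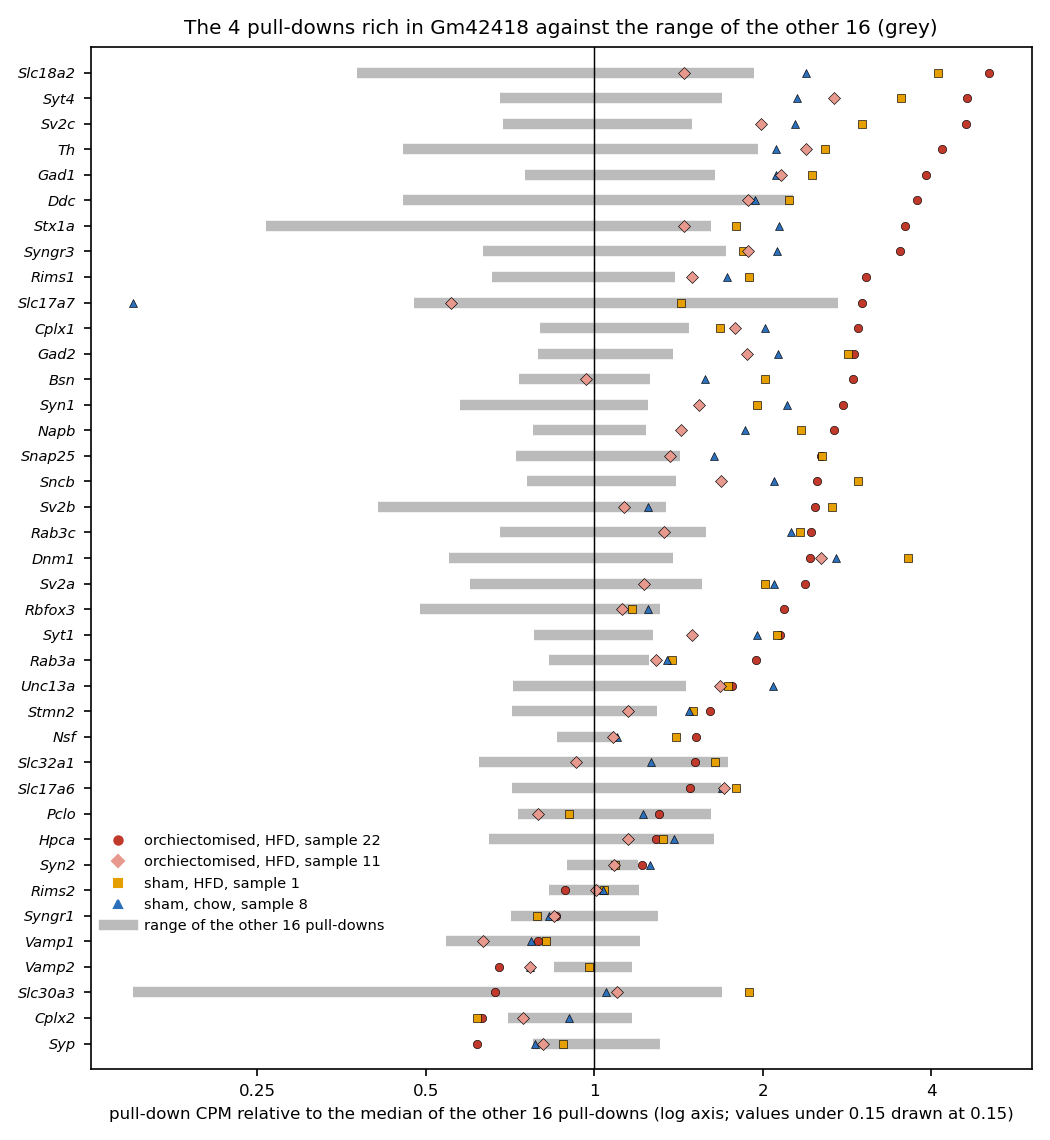
CPM of each gene in the 4 pull-downs rich in Gm42418, divided by the median of the other 16 pull-downs (log axis), with the range of those 16 in grey. Slc18a2, at 5.08 times in ORX HFD sample 22, is at the top and Syp, at 0.62 times, at the bottom. In that sample 28 genes of the list lie beyond the grey range on the high side, a count not made for all tested genes.

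Snap25, taken as the first gene of the list, was set against 3 measures of the 20 pull-downs by permutation tests (100000 resamples, two-sided, adjusted over the 3 relations). With the percentage of mitochondrial counts, Pearson's r was 0.892 (p 3e-05, adjusted 9e-05) and Spearman's rho 0.487 (p 0.0306, adjusted 0.0459). Without samples 22 and 1, which lay farthest from the median, r was 0.599, and within treatment groups it was 0.964 (ORX HFD), 0.970 (sham HFD) and 0.685 (sham chow). The relation thus rested in part on those 2 libraries. The ORX HFD value includes sample 22 and the sham HFD value includes sample 1. Neither was computed again without them, so the shared sign of the groups is not separate from these 2 libraries. With the percentage of Gm42418, r was 0.813 (p 0.00014, adjusted 0.00021) and rho 0.713 (p 0.00056, adjusted 0.00168), with 0.818 without samples 1 and 11, and 0.708, 0.995 and 0.608 within the ORX HFD, sham HFD and sham chow groups. With the library total neither measure passed (r -0.351, p 0.13, adjusted 0.13; rho -0.119, p 0.613). Across the list, as a description over the same 20 libraries, r with the mitochondrial percentage was positive for 34 of the 39 genes (median 0.83). It was over 0.8 for 23 and lowest for Syp (-0.689). The same r was not computed for all tested genes, so these counts are not shown to be particular to the list.

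**Figure D4:**
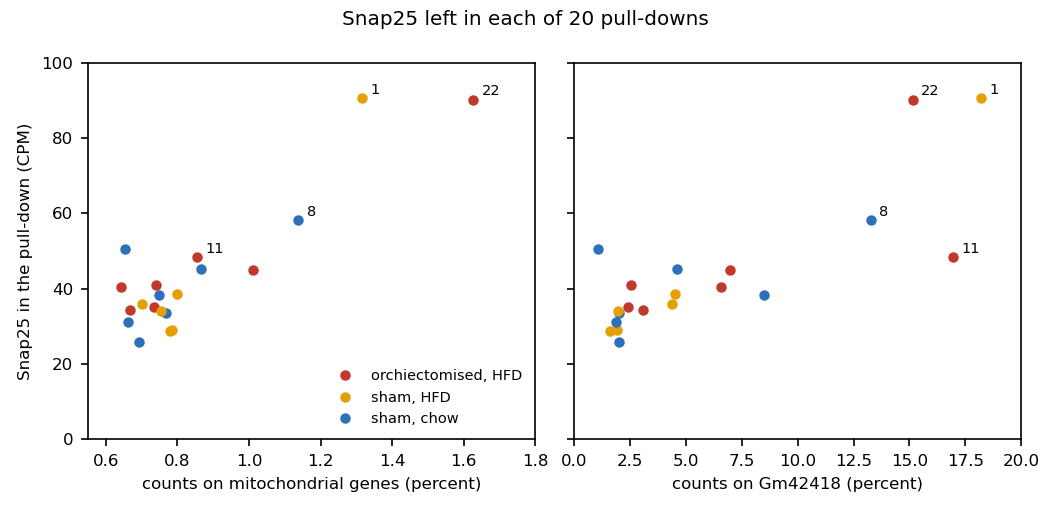
Snap25 CPM in each of the 20 pull-downs against the percentage of counts on mitochondrial genes (left) and on Gm42418 (right), coloured by treatment, with the 4 libraries rich in Gm42418 numbered. Samples 22 and 1 lie highest in both panels, at 90.3 and 90.7 CPM.

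None of the 39 genes was called between treatments, in either fraction. Orchiectomy was read as ORX HFD against sham HFD, diet as sham HFD against sham chow, and both together as ORX HFD against sham chow, so these comparisons share groups of samples. In bulk samples compared in this way, fewer neurons and less RNA per neuron cannot be told apart. In the pull-downs 37 genes were tested, Slc17a7 and Slc30a3 being too low. edgeR called 0 of the 37 for orchiectomy (0% of all tested genes were called), 0 for diet (0%) and 0 for both (0.0142%), with 0, 0 and 1 of the 37 at an unadjusted p under 0.05, which 6.53%, 1.71% and 11.1% of all tested genes reached. In the supernatants 0 of 39 were called in any comparison (0% of all genes in each), with 1, 0 and 0 at an unadjusted p under 0.05, beside 3%, 1.41% and 2.26% of all genes. DESeq2 and limma voom called 0 members in all of these as well. The median log2 fold changes of the members were 0.08, 0.04 and 0.14 in the pull-downs and -0.04, 0.04 and -0.04 in the supernatants, beside medians of all tested genes of 0.01, -0.01 and 0.00 in pull-downs and 0.02, 0.00 and 0.00 in supernatants.

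The member with the smallest p in the pull-downs was Syngr1. It had 41.4 to 57.1 CPM in ORX HFD pull-downs (median 54.9), 46.0 to 75.7 CPM in sham HFD pull-downs (median 58.3) and 48.4 to 64.1 CPM in sham chow pull-downs (median 63.1). ORX HFD against sham chow gave a log2 fold change of -0.21 ± 0.10 (unadjusted p 0.0486, adjusted p 0.447), and the groups overlapped. Syt4 had 26.6 to 119 CPM in ORX HFD pull-downs (median 33.4), 19.8 to 90.6 CPM in sham HFD pull-downs (median 24.98) and 17.4 to 59.2 CPM in sham chow pull-downs (median 24.1). Its log2 fold change in ORX HFD against sham chow was 0.79 ± 0.42 (adjusted p 0.47), and 0.43 ± 0.38 (adjusted p 0.768) without ORX HFD sample 22. Ddc behaved likewise in that comparison, at 0.71 ± 0.36 (adjusted p 0.462) with sample 22 and 0.39 ± 0.32 (adjusted p 0.746) without it. For orchiectomy the next in order after Syngr1 were Rbfox3 (0.35 ± 0.22, adjusted p 0.745) and Cplx1 (0.39 ± 0.27, adjusted p 0.759), which came to 0.14 ± 0.18 and 0.11 ± 0.22 without sample 22. For diet they were Slc18a2 (0.63 ± 0.48), Stx1a (-0.50 ± 0.42) and Rbfox3 (-0.26 ± 0.22), each with an adjusted p of 1.

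In the supernatants, where neuron messages were abundant, standard errors were smaller than in the pull-downs for 32 of the 37 genes tested in both, with medians for orchiectomy of 0.27 in the pull-downs and 0.14 in the supernatants. Sv2c had 56.7 to 74.9 CPM in ORX HFD supernatants (median 62.3), 65.3 to 79.5 CPM in sham HFD supernatants (median 71.6) and 60.6 to 92.2 CPM in sham chow supernatants (median 64.6). Orchiectomy gave a log2 fold change of -0.22 ± 0.11 (unadjusted p 0.0453, adjusted p 0.945), with overlapping groups. Sncb (-0.22 ± 0.12) and Hpca (-0.27 ± 0.16) followed, both at an adjusted p of 0.945. For diet the smallest p-values were those of Bsn (0.20 ± 0.13), Syt1 (-0.19 ± 0.13) and Sv2b (0.20 ± 0.14), each at an adjusted p of 0.904. For both together they were those of Sv2c (-0.17 ± 0.10), Syt1 (-0.16 ± 0.13) and Hpca (-0.18 ± 0.15), each at an adjusted p of 1.

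**Figure D5:**
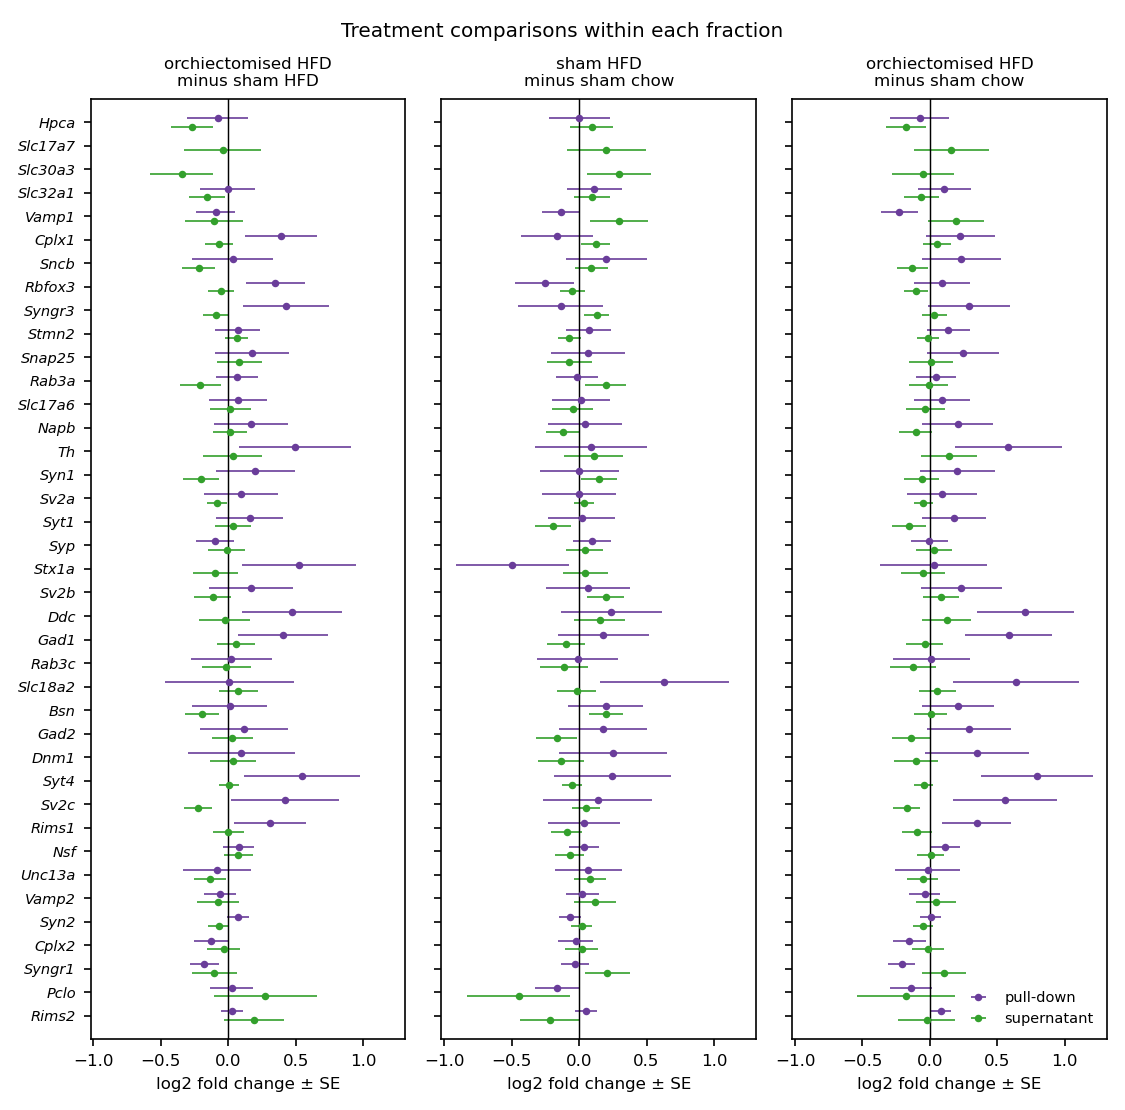
Log2 fold changes with their standard errors for the 39 genes in the 3 treatment comparisons, pull-down in purple and supernatant in green. Slc17a7 and Slc30a3 were not tested in the pull-downs, the errors are wider in the pull-downs for most genes, and none passed the threshold.

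How much of each gene was left did not differ by a passing test between treatments either. Within each treatment all 39 genes were called lower in the pull-down, with medians of -3.13 in ORX HFD, -3.33 in sham HFD and -3.41 in sham chow, where 39.2%, 38.2% and 38.7% of all tested genes were called lower. Snap25 had 7.55% ± 3.91 left in ORX HFD (n = 7), 7.33% ± 5.22 in sham HFD (n = 6) and 6.09% ± 2.01 in sham chow (n = 7). Hpca had 2.42% ± 0.67, 2.18% ± 0.85 and 2.34% ± 0.95 left in the same order of groups. The interaction of treatment with fraction was called for 0 of 39 genes for orchiectomy (0.0064% of all genes called), diet (0%) and both together (0.0128%), with 0 at an unadjusted p under 0.05 in each (4.43%, 2.55% and 6.66% of all genes) and 0 called by DESeq2 or limma voom. For both together the estimates were positive for 34 of the 39 genes, with a median of 0.16 beside -0.01 for all genes, and the smallest p-values were those of Syt4 (0.82 ± 0.41, adjusted p 0.737), Sv2c (0.71 ± 0.39, adjusted p 0.738) and Gad1 (0.60 ± 0.35, adjusted p 0.747). That sign count rested on few libraries: it was 22 of 39 (median 0.06) without the 4 samples rich in Gm42418, of which ORX HFD held 2, and 18 of 39 (median -0.02) without ORX HFD sample 22 alone. In the same interaction, with all samples, the estimates were positive for 9 of 9 endothelial markers (median 1.11) and for 0 of 15 astrocyte markers (median -0.62), and the part of either in the count for the 39 genes was not tested.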

How the data were processed

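Per the labels, polyadenylated RNA of hypothalamic pull-downs and supernatants was made into QuantSeq 3' FWD libraries, and the submitters' processing notes name Trim Galore 0.6.4, Salmon 1.9.0 and the build GRCm38. The sources used here do not give the annotation, the strandedness or how genes were summed from transcripts. The authors' deposited table gives an estimated count for each gene (12.7% of non-zero values are not whole), which was rounded to a whole number. A second deposited table, named TPM, holds a signal not normalised by length and served as an alternative only.

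Counts were tested with edgeR 4.0.16 in R 4.3.3 (quasi-likelihood, TMM, filterByExpr with a minimum count of 10, robust). The 40 libraries were fitted with 6 group means for the fractions and interactions, and each fraction was fitted with 3 group means for treatments. A call required a Benjamini-Hochberg adjusted p under 0.05 over all genes tested. SEs were derived from the F statistic, and the scripts were checked on simulated data. Alternatives were DESeq2 1.42.0, voom of limma 3.58.1, limma on log2 of the second table's value plus 1, other scalings and filters, left-out samples and a block for the sample number. Correlations used scipy 1.17.1. The counts do not separate PCR copies from molecules, so the spread between samples sets the error.

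The members, the other gene lists and the tests were chosen with earlier results of these data known. All 39 members are accounted for. Given in full are, within each role, the members with the lowest and highest percent left and the highest mean supernatant CPM, and, for each treatment comparison, the 3 with the smallest p. Other members are added by their values. From each other list the 3 tested genes with the highest mean supernatant CPM are named, paralogues also by pair (Stx4 is not reported), and the few list genes that went the other way were added after their values were seen. A few list genes due to be named are left out of the text but remain in every fit and count. Positions are from GENCODE M21 on GRCm38 and promoters from RefSeq on GRCm38.p6. Protein sequences were not compared here.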

Additional observations from a re-analysis of the deposited data

Results flagged for a closer look

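The percent left in the pull-down was screened gene by gene within each treatment group for a single sample that lay far from the others of its group. In 117 combinations of a gene and a group, 35 values stood out, each on the high side. Chance gives about 1 in 20 where combinations are independent. These combinations reuse the same samples gene after gene, so that rate cannot be applied to their count. Of the 35 values, 33 were in 3 of the 4 samples whose pull-down was rich in Gm42418, and sample 11, the remaining one, had none. The screen rests on the gap to the next value, and samples 11 and 22 are both in ORX HFD. Each can therefore hide the other: Syt4 had 40.5% left in sample 22 and 24.4% in sample 11, and neither was flagged. The absence of sample 11 and the counts per sample are thus no measure of how far each sample lay from the rest.

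Sham HFD sample 1 stood out for 17 genes. The percent left there was 17.5% for Snap25, 6.61% for Cplx1, 16.9% for Napb, 22.0% for Syt1, 34.1% for Syt4, 16.4% for Sv2a, 26.9% for Sv2c, 29.8% for Rab3c and 12.7% for Sncb. It was 36.1% for Dnm1, 23.9% for Rims1, 14.7% for Slc17a6, 40.8% for Slc18a2, 34.3% for Gad2, 17.0% for Th, 21.6% for Ddc and 11.2% for Stmn2. For Slc18a2 the other 5 sham HFD samples had 6.70% to 15.3%, and for Snap25 they had 3.17% to 7.79%.

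ORX HFD sample 22 stood out for 11 genes, with 15.6% for Snap25, 12.7% for Cplx1, 19.2% for Napb, 18.8% for Syt1, 18.0% for Syngr3, 20.4% for Sv2a and 47.1% for Sv2c. The others were Rims1 (32.9%), Bsn (29.5%), Slc18a2 (37.95%) and Gad2 (31.2%). For Sv2c the other 6 ORX HFD samples had 7.26% to 20.5%. Samples 1 and 22 shared 9 of these genes: Snap25, Cplx1, Napb, Syt1, Sv2a, Sv2c, Rims1, Slc18a2 and Gad2.

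Sham chow sample 8 stood out for 5 genes: Cplx1 (11.2%), Syn1 (21.1%), Sncb (11.0%), Dnm1 (22.3%) and Bsn (22.6%). Outside the samples rich in Gm42418, Syngr1 stood out in sham chow sample 12 with 50.4%, where the other sham chow samples had 32.1% to 37.7%. Vamp2 stood out in sham HFD sample 18 with 28.7%, where the other sham HFD samples had 15.5% to 20.1%.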

How the results depend on the processing

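All 39 genes stayed lower and called in the pull-down under DESeq2, library totals without TMM, removal of mitochondrial genes, no filter on low counts, limma voom, and without the samples rich in Gm42418, ORX HFD sample 22 or ORX HFD sample 2 (the last 2 chosen after seeing the data), with medians from -3.57 to -3.19. The second deposited table gave 38, and there Rims2 reversed to 0.95. No treatment or interaction call appeared in any alternative run. With no filter the median of all genes shifted to -0.18. The median percent left was 10.2% without TMM, 10.4% without mitochondrial genes and 8.55% without the samples rich in Gm42418.

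A replicate block on the sample number called the same count, 39, with a median of -3.29, and 0 interactions. The numbers share samples only by label: over 20 pairs, correlations of deviations ran from -0.104 to 0.197, 5 were over 0.1, and 4 pull-downs correlated best with their own number. No paired analysis was possible between treatments because the groups share no numbers. The planned comparison of protein sequences was not run. Depth limits Slc17a7, Slc30a3 and Stx1a, whose pull-downs held at most 41 counts.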

Other observations

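The supernatant of ORX HFD sample 2, picked after its values were seen, held the presynaptic genes in other proportions than the remaining 19 supernatants. The SNARE genes Vamp1 and Snap25 had 679 and 1168 CPM there, against highest values of 493.2 and 912 CPM in the other supernatants. Vamp2 (416 CPM against at most 314), Syp (267 against at most 181), Th (145 against at most 120) and Ddc (212 against at most 177) were also above all others. The active zone genes were split. Pclo had 89.6 CPM there, against 97.3 to 489 CPM in the others, and Rims1 had 110 CPM, against 125 to 195 CPM. Bsn (60.4 CPM against at most 53.2) and Unc13a (24.9 against at most 23.7) were instead above all others. Dnm1 (55.2 CPM against at least 67.0), Rab3c (341 against at least 355), Napb (417 against at least 472) and Syt1 (1033 against at least 1132) were below all others. The highest supernatant for Pclo was that of sham chow sample 12, which was also the highest for Rims2 at 157 CPM, where sample 2 had 69.5 CPM. In the count of genes for which a library was the highest or the lowest of 20, sample 2 came to 16 and 6, and sample 12 to 6 and 6.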
